A study of Mus musculus with 6 samples.

Results

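The mouse genes for the proteins of the mitochondrial ribosome were taken from a table of 18159 genes by symbol, as every gene named Mrps or Mrpl with a number and at most 1 further letter. The rule found 78 genes, 29 with the small-subunit symbol Mrps and 49 with the large-subunit symbol Mrpl, and all 78 were expressed above the filter on low counts that 13558 genes passed. Poly(A)-selected RNA came from intestinal epithelial cells of mice in 2 groups of 3 libraries, Git2-knockout and WT. The titles give the first group as knockout while the genotype field reads knockdown, so these are called the libraries labelled Git2-knockout. The labels name no allele, no Cre driver and no treatment. The titles describe isolated epithelial cells, and the design text describes enteroids, which are epithelial organoids grown from crypts, from mice aged 12 days. Nothing states that the libraries of a group came from separate animals, so the p-values speak to the variation among these 6 libraries alone, and that variation may be technical in origin.

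The mitochondrial ribosome translates the few mRNAs encoded by mitochondrial DNA, all of which specify subunits of the oxidative phosphorylation complexes. Its rRNAs come from mitochondrial DNA, whereas all its proteins are encoded in the nucleus, made on cytosolic ribosomes and imported. Some of these proteins have counterparts in bacterial ribosomes and others exist only in mitochondria. In the intestine, dividing crypt cells and absorptive cells both rely on oxidative phosphorylation.

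The libraries labelled Git2-knockout held 16284414 to 16837158 estimated reads, against 18753649 to 19106581 in the WT libraries. Git2, a scaffold protein and Arf GTPase-activating protein, had 17.4, 15.5 and 16.8 CPM (read counts scaled to library size) in the libraries labelled Git2-knockout, against 22.2, 23.7 and 22.7 CPM in WT libraries. The transcript was therefore lower in the labelled libraries but still present, and the counts do not show where the gene was altered. All 9 epithelial markers were measured, and their summed level was 8570 to 8800 CPM in libraries labelled Git2-knockout against 9510 to 9930 CPM in WT, with 7 lower at adjusted p under 0.05. Other cell types were also represented. Fibroblast and smooth muscle markers summed to 157 to 164 CPM in libraries labelled Git2-knockout and 53.8 to 58.7 CPM in WT, with 12 of 13 tested higher. Endothelial markers summed to 56.5 to 64.6 CPM against 26 to 26.5 CPM in WT (9 of 10 higher). Red blood cell markers summed to 74 to 84.4 CPM against 22.8 to 24.5 CPM in WT (4 of 5 higher). Macrophage markers summed to 133 to 134 CPM in libraries labelled Git2-knockout against 232 to 235 CPM in WT, with 2 of 8 higher and 1 lower. Their median log2 fold change was 0.083, so the lower sum does not describe most of these markers. B cell markers summed to 55.9 to 66.8 CPM against 67.7 to 72.8 CPM in WT (4 of 5 lower), and T cell markers to 13.2 to 14.1 CPM against 11.2 to 12.8 CPM in WT (1 of 3 higher and 1 lower). Of all genes tested, 29.6% were higher and 27.4% lower. With the length trend described below removed, 12 fibroblast and smooth muscle, 10 endothelial, 4 red blood cell and 4 macrophage markers were higher. In that comparison 1 macrophage, 4 B cell and 6 epithelial markers were lower, and no T cell marker was called, beside 23.5% higher and 30.5% lower over all genes. No listed marker in the table was at 0 in every library. The part of these cell types in the mitoribosomal results was not tested, and in bulk RNA fewer cells of a type cannot be told apart from less RNA per cell.

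Most mitoribosomal genes had lower levels in libraries labelled Git2-knockout than in WT. By edgeR's quasi-likelihood test at a Benjamini-Hochberg adjusted p under 0.05 over all genes, 54 of 78 fell, 2 rose and 22 were not called, while 27.4% of all genes tested fell and 29.6% rose. The median log2 fold change of the 78 genes was -0.29 (that of all genes tested was 0.015), and single genes ran from -0.77 for Mrpl52 to 0.40 for Mrpl32. In 58 genes every library labelled Git2-knockout lay below every WT library, an arrangement found in 30.6% of all genes tested. The reverse arrangement held for 2 genes, against 32.3% of all genes. Together the 78 genes took 0.197%, 0.183% and 0.183% of the reads of the libraries labelled Git2-knockout, against 0.215%, 0.222% and 0.223% in WT libraries. Their summed level was 1945.4, 1799.5 and 1818.3 CPM in libraries labelled Git2-knockout and 2170.7, 2247.2 and 2263.4 CPM in WT, a ratio of 0.833, and the groups did not overlap. Among the libraries labelled Git2-knockout, replicate 1 had the smallest shift, with a median of -0.21 on the log2 scale relative to the WT mean, and replicates 2 and 3 had -0.32 and -0.31. Without replicate 1, 64 of the genes fell, as did 30.8% of all genes tested, and the median was -0.34. The direction was the same under other scalings, with 61 falls by upper quartile scaling (30.2% of all genes), 45 by library totals (23.9%) and 45 by DESeq2 (24.0%).

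**Figure D1:**
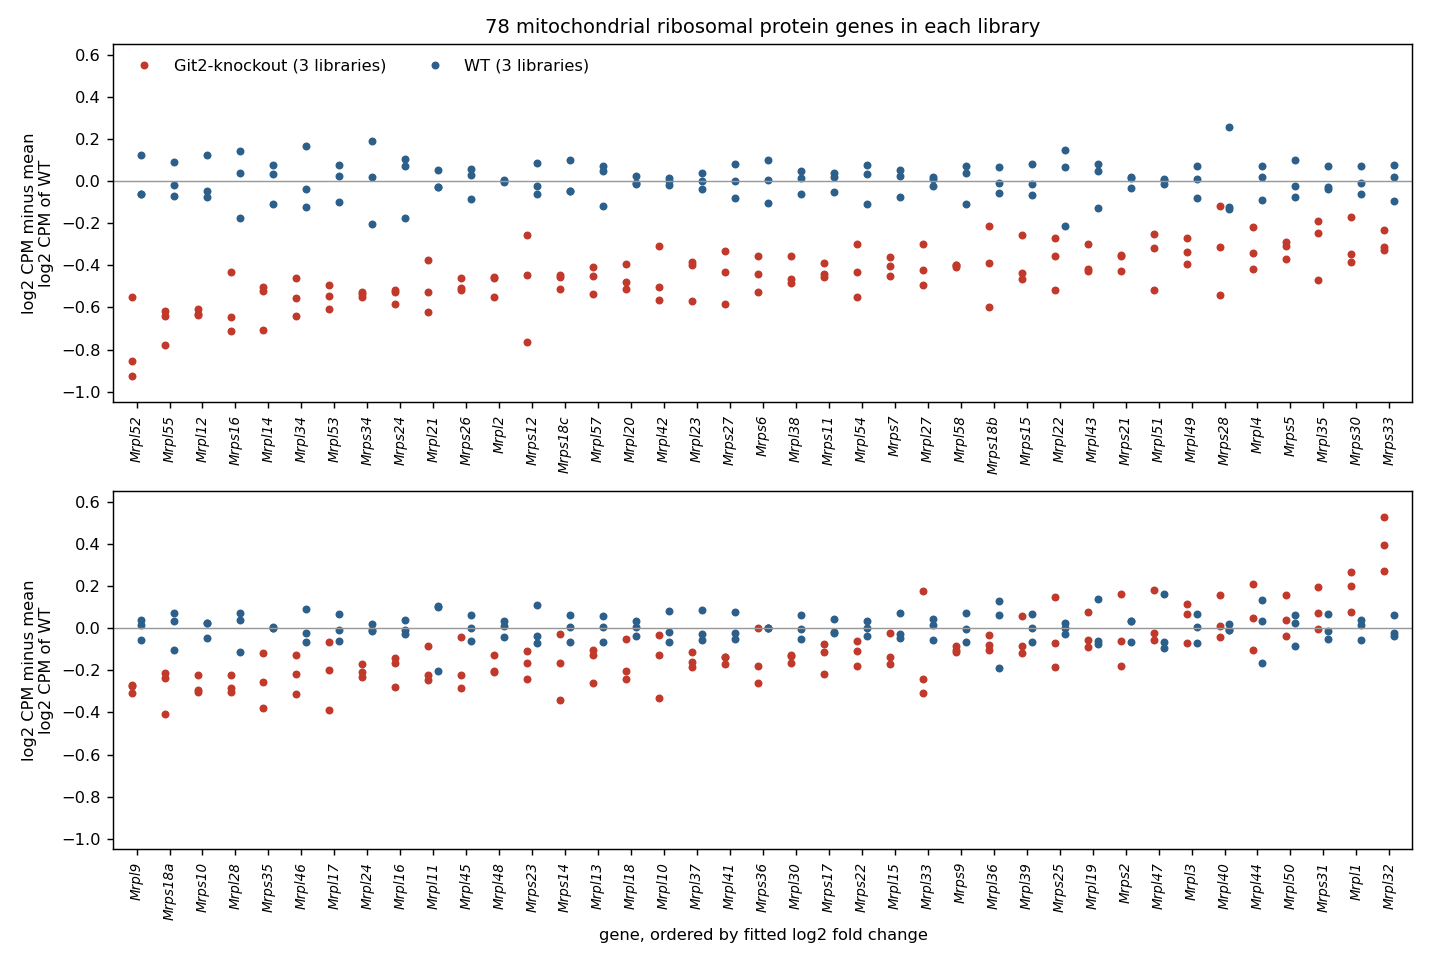
Log2 CPM of each of the 78 mitoribosomal genes minus the mean log2 CPM of the WT libraries, in 2 rows ordered by fitted fold change, with 1 point per library (red, Git2-knockout, and blue, WT, 3 libraries each). Points of libraries labelled Git2-knockout lie below those of WT in the upper row, from Mrpl52 on, except in Mrps28. There replicate 1 (7.59 CPM) lies just above WT replicates 1 and 2 (7.53 and 7.58 CPM). In the lower row the points mix in some genes, most of them toward the end, where Mrpl1 and Mrpl32 lie above.

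Of the 8 falls with the smallest p, 6 were in large-subunit genes, which are 49 of the 78. Mrpl12 encodes a protein of the flexible stalk that contacts translation factors, and it has also been reported to bind the mitochondrial RNA polymerase. It had 37.9, 37.3 and 37.2 CPM in libraries labelled Git2-knockout against 54.8, 55.8 and 63.0 CPM in WT. The groups were well apart, and the log2 fold change was -0.63 ± 0.0596 (SE; adjusted p = 2.73e-07). Mrpl52, a mitochondrion-specific protein and the shortest transcript of the group at 363 nucleotides, had 15.8, 12.8 and 12.2 CPM in libraries labelled Git2-knockout against 25.2, 22.2 and 22.2 CPM in WT. Its log2 fold change was -0.77 ± 0.0945 (SE; adjusted p = 4.67e-06). Mrpl55, another mitochondrion-specific protein, had 7.59, 6.80 and 7.48 CPM in libraries labelled Git2-knockout and 11.1, 11.5 and 12.4 CPM in WT, a log2 fold change of -0.68 ± 0.0966 (SE; adjusted p = 1.98e-05).

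Mrpl2, the counterpart of the bacterial protein L2 near the peptidyl transferase centre, had 36.7, 34.5 and 36.8 CPM in libraries labelled Git2-knockout against 50.4, 50.7 and 50.3 CPM in WT. The 3 WT values were nearly equal, and the log2 fold change was -0.49 ± 0.0520 (SE; adjusted p = 9.44e-07). Mrpl23, which lies at the exit of the peptide tunnel, had 34.4, 30.6 and 34.7 CPM in libraries labelled Git2-knockout and 44.2, 45.3 and 46.6 CPM in WT (log2 fold change -0.45, adjusted p = 8.78e-06). Mrpl27, the counterpart of bacterial L27, had 39.0, 34.0 and 35.8 CPM in libraries labelled Git2-knockout and 48.5, 47.1 and 48.2 CPM in WT (-0.40, adjusted p = 2.01e-05). None of these 3 genes had overlapping groups. In the small subunit, Mrps26, a mitochondrion-specific protein, had 19.8, 20.6 and 19.9 CPM in libraries labelled Git2-knockout against 28.9, 26.7 and 29.4 CPM in WT (-0.49, adjusted p = 9.37e-06). Mrps7, the counterpart of a bacterial protein that binds the rRNA of the small subunit's head, had 29.2, 27.4 and 28.3 CPM in libraries labelled Git2-knockout against 35.6, 38.8 and 38.1 CPM in WT (-0.41, adjusted p = 2.06e-05). Mrps12, which sits at the decoding site, had 16.8, 11.8 and 14.7 CPM in libraries labelled Git2-knockout and 19.7, 19.2 and 21.3 CPM in WT (-0.48, adjusted p = 0.00118). It was named after its values were seen, and its call was lost with the length trend described below removed.

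The 2 rises were in large-subunit genes. Mrpl32 is matured inside mitochondria by the m-AAA protease, a step of ribosome assembly. It had 19.5, 16.3 and 17.8 CPM in libraries labelled Git2-knockout against 13.2, 14.1 and 13.3 CPM in WT, with no overlap, and its log2 fold change was 0.40 ± 0.0846 (SE; adjusted p = 7.23e-04). The protease subunit Afg3l2 averaged 168 ± 8.48 CPM in libraries labelled Git2-knockout and 148 ± 2.62 CPM in WT (SD, n = 3 each), a log2 fold change of 0.18 (adjusted p = 0.00318). Its partner Spg7 averaged 84.3 ± 3.54 CPM against 96.4 ± 1.44 CPM in WT (log2 fold change -0.19, adjusted p = 0.0022). Mrpl1, the protein of the L1 stalk beside the tRNA exit site, had 21.5, 19.7 and 22.5 CPM in libraries labelled Git2-knockout and 18.9, 18 and 19.2 CPM in WT. The gap between the groups was small, with a log2 fold change of 0.18 ± 0.0733 (SE; adjusted p = 0.0434). The call for Mrpl1 was lost on leaving out WT replicate 1 (0.19), 2 (0.15) or 3 (0.20) or Git2-knockout replicate 1 (0.15) or 3 (0.13). It was also lost with RLE (0.17) or upper quartile scaling (0.15), DESeq2 (0.17) and no filter (0.17), and with a GC trend removed Mrpl1 was called as a fall, at -0.23 (adjusted p = 0.0168). Mrpl32 was not called as a rise with the GC trend removed, where its log2 fold change was 0.056, against 0.40 as counted.

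Promoters of the strongest fall by p, of the largest fall and of the largest rise are shown because letter motifs of 3 factors known to act on nuclear genes for mitochondrial proteins were searched on both strands of RefSeq promoter windows. The windows, on build GRCm38.p6, run from 250 bases before to 50 bases after an annotated start, and 69 of the 78 genes had one or more, 75 windows in all. Each sequence below is the 250 bases before the start, 5′ to 3′ on the gene's strand, and capitals mark the motif on either strand. That of Mrpl12 (chr11:120484387-120484636, plus strand) holds the NRF1 motif, that of Mrpl52 (chr14:54426659-54426908, plus strand) the ETS motif, and that of Mrpl32 (chr13:14613038-14613287, minus strand) a YY1 and then an NRF1 motif.
Mrpl12: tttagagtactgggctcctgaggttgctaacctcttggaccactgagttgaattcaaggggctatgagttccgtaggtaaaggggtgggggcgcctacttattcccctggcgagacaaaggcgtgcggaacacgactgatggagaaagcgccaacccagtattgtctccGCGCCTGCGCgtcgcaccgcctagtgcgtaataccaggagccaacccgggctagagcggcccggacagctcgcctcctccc
Mrpl52: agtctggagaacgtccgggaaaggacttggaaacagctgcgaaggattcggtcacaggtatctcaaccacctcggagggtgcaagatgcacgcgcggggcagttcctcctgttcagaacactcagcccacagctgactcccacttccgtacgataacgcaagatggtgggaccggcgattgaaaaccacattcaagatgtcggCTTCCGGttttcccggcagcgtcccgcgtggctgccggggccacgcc
Mrpl32: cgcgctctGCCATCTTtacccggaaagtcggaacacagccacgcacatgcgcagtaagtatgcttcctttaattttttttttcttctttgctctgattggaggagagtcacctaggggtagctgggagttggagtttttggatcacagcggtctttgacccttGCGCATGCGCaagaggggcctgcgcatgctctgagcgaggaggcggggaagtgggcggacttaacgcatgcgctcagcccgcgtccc
The capitals begin 81 bases before the start in Mrpl12, 47 bases before it in Mrpl52, and 242 and 87 bases before it in Mrpl32.

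The NRF1 motif (GCGCA, then N for any base, then GCGC) was found in 13 of the 75 windows (17.3%), against 4.60% of all 32851 mouse windows. The ETS motif CCGGAAG, the core bound by the factor of which Gabpa is a subunit, was in 26 windows (34.7%), against 8.86% of all. The YY1 motif AAGATGGC was in 12 windows (16%), against 2.75% of all. The 32851 windows were not limited to genes that passed the filter on low counts, and no share was taken over those genes alone. The ETS and YY1 motifs share the letters AAG and can overlap, but no matches of different motifs overlapped in the 75 windows. A match describes the sequence and not a bound site. ETS and NRF1 motifs occurred together in 4 genes, ETS and YY1 in 3, and NRF1 and YY1 in Mrpl32. Of the 26 mitoribosomal genes with the ETS motif, 23 fell and 0 rose, with a median log2 fold change of -0.39, and of the 43 without it 25 fell, with a median of -0.19. Genes with the motif also had shorter transcripts (median 840 nucleotides, against 1085 without it). With the length trend described below removed, the medians were -0.15 with the motif and -0.11 without it. The 13 genes with the NRF1 motif had a median of -0.21, against -0.29 in the 56 without it. Of the 13, 9 fell and 1, Mrpl32, rose, and of the 56 without the motif 39 fell. Transcripts of genes with the motif were longer (median 1374 nucleotides, against 1009 without it). With the length trend removed the order of the medians turned, to -0.17 with the motif and -0.11 without it. The 12 genes with the YY1 motif had a median of -0.37, against -0.27 in the 57 without it. Of the 12, 10 fell and 1 rose, and of the 57 without the motif 38 fell. Removal of the length trend gave medians of -0.19 with it and -0.11 without it. The counts stand beside 27.4% falls and 29.6% rises over all genes tested. None of the differences between genes with and without a motif was tested.

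Transcript length set the mitoribosomal genes apart from most of the table. The length implied by the deposited counts and FPKM values ran from 363 nucleotides (Mrpl52) to 6662 nucleotides (Mrpl17), with a median of 1021, while the median of the 12629 genes with a length was 2762. Short transcripts in general had lower levels in libraries labelled Git2-knockout. Across genes the correlation of log2 fold change with log2 length was r = 0.39 (Spearman 0.49, n = 12629), and among the mitoribosomal genes it was r = 0.40 (Spearman 0.46, n = 78). All genes share the 6 libraries and are not independent replicates. The implied length itself differed by less than 5% between the groups in 77 of 78 genes, the exception being Mrpl15.

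Set beside genes of the same length, the excess of mitoribosomal falls was smaller. Below 750 nucleotides 16 of 20 fell and 1 rose, with a median log2 fold change of -0.43, and in that class 69.9% of all 501 genes fell and 4.59% rose, with a median of -0.42. From 750 to 1000 nucleotides 15 of 17 fell and 0 rose (median -0.43), against 60.9% and 6.13% of 473 genes (median -0.30). From 1000 to 1500 nucleotides 14 of 21 fell and 0 rose, against 48.6% and 8.20% of 1378 genes, and both medians were -0.19. From 1500 to 2500 nucleotides 7 of 14 fell and 1 rose (median -0.18), against 38.1% and 16.4% of 3189 genes (median -0.10). Above 2500 nucleotides 2 of 6 fell and 0 rose (median -0.15), and in that class 16.4% of 7088 genes fell and 43.1% rose (median 0.13). The medians of the shortest and the 1000 to 1500 classes were thus close to those of all genes of that length, and the gap was widest above 2500 nucleotides. The length shift also differed between libraries. Relative to the WT mean, genes below 750 nucleotides had medians of -0.31, -0.46 and -0.45 in Git2-knockout replicates 1, 2 and 3, and the 20 mitoribosomal genes of that class had -0.30, -0.50 and -0.45.

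**Figure D2:**
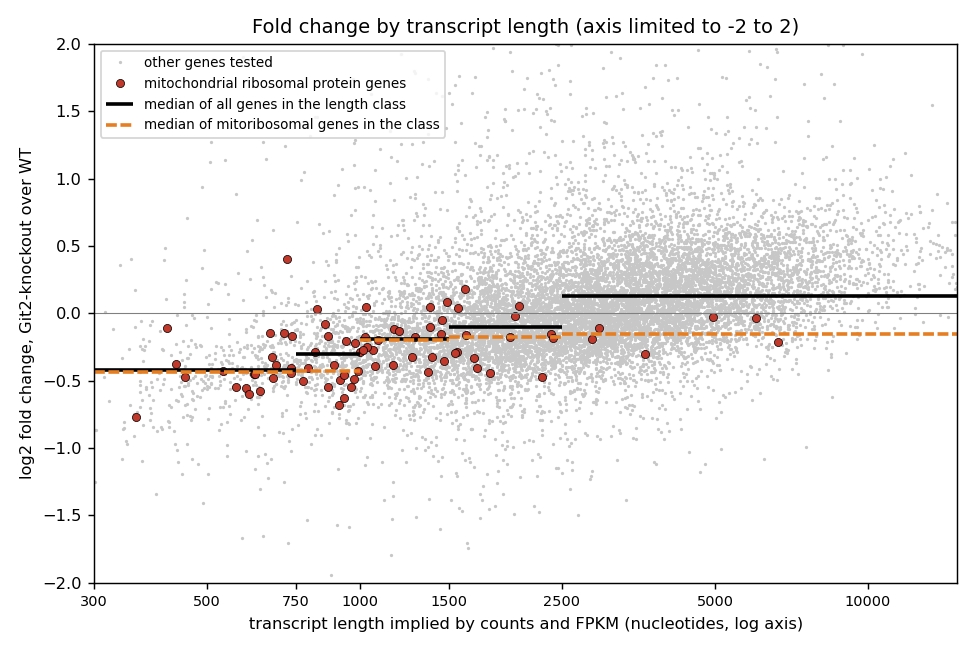
Log2 fold change, Git2-knockout over WT (vertical axis, limited to -2 to 2), against implied transcript length in nucleotides (horizontal log axis) for all genes tested (grey) and the 78 mitoribosomal genes (red). Black lines are the medians of all genes in each length class and dashed orange lines those of the mitoribosomal genes, which nearly coincide below 750 nucleotides (-0.42 and -0.43) and part above 2500 (0.13 and -0.15).

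The comparison was therefore repeated with a smooth curve of deviation against length removed from each library. The correlation with length across all genes was then r = 0.01, and among the mitoribosomal genes it was -0.30 (Spearman -0.20, n = 78). With the trend removed, 31 mitoribosomal genes fell and 9 rose, while 30.5% of all genes fell and 23.5% rose. Their median log2 fold change was -0.12, against -0.024 for all genes. Of the 54 falls, 28 were kept, 25 were no longer called and 1, Mrpl30, became a rise. Another 3 genes, Mrpl11, Mrpl15 and Mrpl19, fell only with the trend removed, and 6 rose only then (Mrpl3, Mrpl33, Mrpl40, Mrpl47, Mrps31 and Mrps36). Mrpl1 and Mrpl32 rose in both, and 13 genes were called in neither. By class, 4 of 20 fell and 4 rose below 750 nucleotides, against 29.3% and 17.0% of all genes there. From 750 to 1000 nucleotides 9 of 17 fell and 1 rose, against 29.2% and 18.2%. From 1000 to 1500 nucleotides 6 of 21 fell and 2 rose, against 28.7% and 18.4%. From 1500 to 2500 nucleotides 7 of 14 fell and 2 rose, against 32.0% and 21.0%. Above 2500 nucleotides 5 of 6 fell and 0 rose, against 33.9% and 25.6%.

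**Figure D3:**
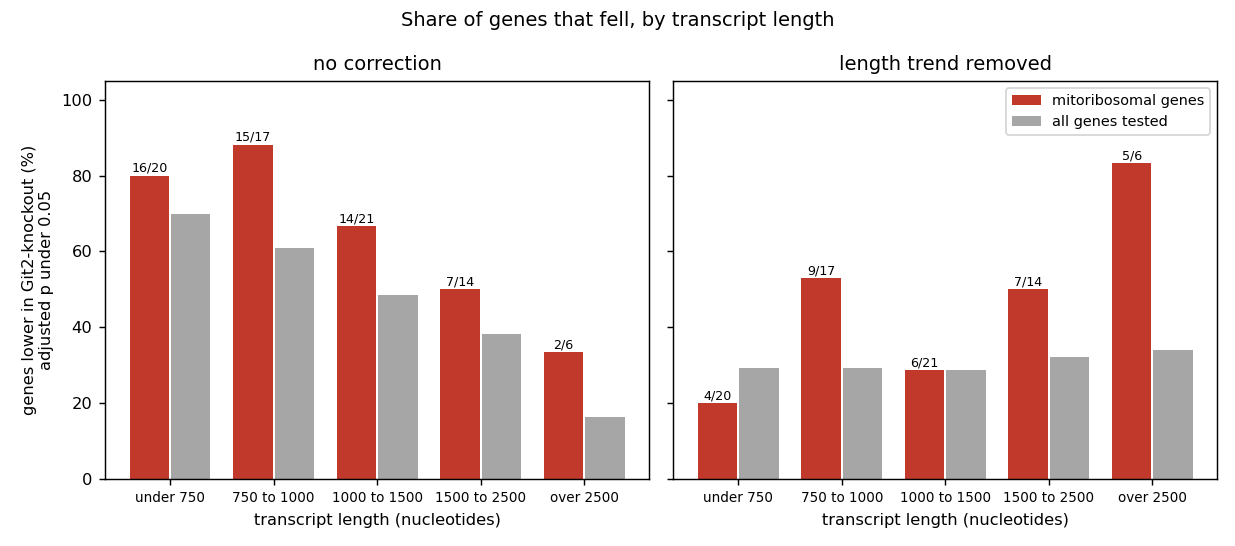
Percentage of genes that fell at adjusted p under 0.05 in each class of transcript length, for mitoribosomal genes (red, with the count over the class size) and all genes tested (grey), before (left panel) and after (right panel) removal of the length trend. The bars of all genes drop from 69.9% to 16.4% with length in the left panel and lie between 28.7% and 33.9% in the right panel, where the mitoribosomal bars run from 4 of 20 to 5 of 6.

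Single genes moved in both directions under this correction. Mrpl12 kept a log2 fold change of -0.40 (adjusted p = 1.47e-06), Mrpl55 one of -0.44 (4.03e-04), Mrpl52 one of -0.27 (0.00523), Mrpl2 one of -0.27 (6.46e-05), Mrps26 one of -0.26 (0.00229) and Mrps7 one of -0.31 (3.81e-05). Mrpl23, at -0.11 (adjusted p = 0.0876), Mrpl27, at -0.11 (0.0531), and Mrps12, at -0.17 (0.102), were no longer called. Mrpl32 had the largest rise, at 0.70 (adjusted p = 1.14e-07), and Mrpl1 reached 0.29 (0.00141). Mrpl30, a large-subunit protein with a bacterial counterpart, had 35.9, 36.9 and 36.7 CPM in libraries labelled Git2-knockout against 38.8, 42.0 and 40.1 CPM in WT. It was called in opposite directions, at -0.14 as counted (adjusted p = 0.0329) and 0.16 with the trend removed (0.0186). The fall of Mrpl30 was lost without Git2-knockout replicate 3 (-0.16) or WT replicate 2 (-0.12) or 3 (-0.15), with library totals (-0.11), with DESeq2 (-0.16) and on log2(TPM + 1) (-0.0080). The rise was lost with length and GC trends removed together (0.080, adjusted p = 0.243).

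**Figure D4:**
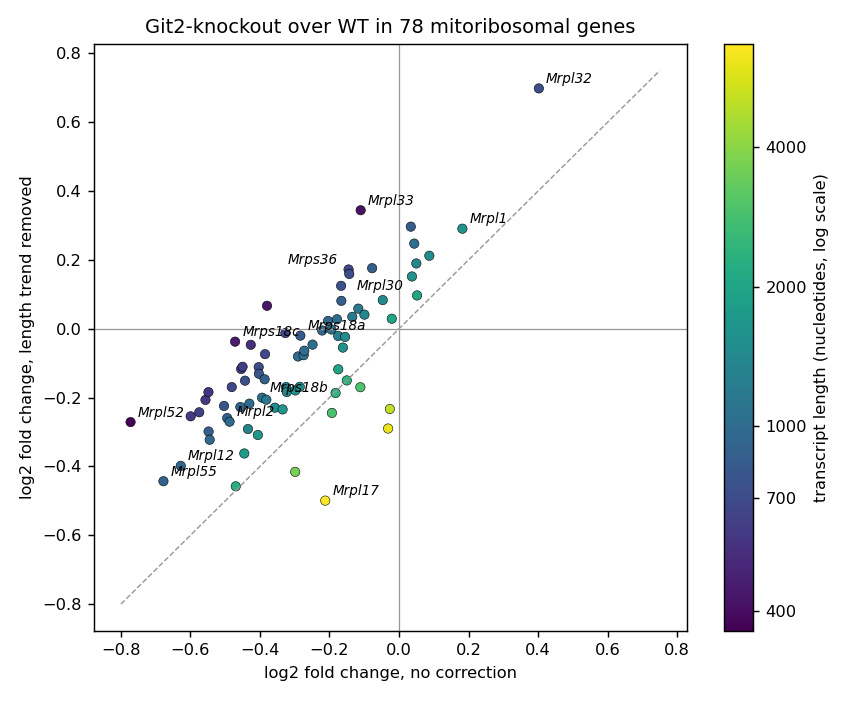
Log2 fold change, Git2-knockout over WT, of the 78 mitoribosomal genes without correction (horizontal axis) and with the length trend removed (vertical axis), coloured by transcript length in nucleotides on a log scale, with the dashed line of equal values. Short genes lie above the line (Mrpl52, -0.77 and -0.27) and the longest below it (Mrpl17, -0.21 and -0.50).

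The 3 shortest and the 3 longest mitoribosomal transcripts showed the reach of the correction. After Mrpl52 the shortest were Mrpl33 (417 nucleotides) and Mrps21 (435). Mrpl33, the counterpart of a small bacterial large-subunit protein, had 22.8, 16.3 and 17.1 CPM in libraries labelled Git2-knockout and 20.4, 19.4 and 20.8 CPM in WT, so the groups overlapped through replicate 1. Its log2 fold change was -0.11 (adjusted p = 0.396), it was called at -0.30 without Git2-knockout replicate 1, and with the length trend removed it was 0.34 (adjusted p = 9.22e-04). Mrps21 had 27.2, 27.1 and 25.8 CPM in libraries labelled Git2-knockout against 35.2, 33.9 and 35.1 CPM in WT, a log2 fold change of -0.38 (adjusted p = 3e-05), which was 0.067 with the trend removed (0.33). Mrpl17, at 6662 nucleotides the longest, had 24.9, 19.9 and 22.7 CPM in libraries labelled Git2-knockout and 27.3, 25.0 and 25.9 CPM in WT. Its fold change was -0.21 as counted (adjusted p = 0.0293) and -0.50 with the trend removed (0.0011). The fall as counted was lost without Git2-knockout replicate 2 (-0.14) or 3 (-0.23) or WT replicate 1 (-0.18) or 3 (-0.22). It was also lost with library totals (-0.18), DESeq2 (-0.22), the GC trend removed (-0.20), log2(FPKM + 1) (-0.14) and log2(TPM + 1) (-0.049). Mrps25 (6026 nucleotides) had 48.3, 41.5 and 38.3 CPM in libraries labelled Git2-knockout and 43.6, 44.4 and 42.8 CPM in WT, with the groups overlapping. It was not called at -0.031 (adjusted p = 0.728) or, with the trend removed, at -0.29 (0.0688), and as counted it fell to a called -0.15 without Git2-knockout replicate 1. Mrpl19 (4966 nucleotides) had 26.3, 23.5 and 24.0 CPM in libraries labelled Git2-knockout and 23.9, 27.5 and 23.7 CPM in WT. Its value was -0.026 as counted (adjusted p = 0.782) and -0.23 with the trend removed (0.0115).

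The TPM scale divides each count by transcript length and then brings the length-divided counts of every library to the same total. On it the level of the 78 genes averaged from 7.78 (Mrpl17) to 165.9 (Mrpl24) over the 6 libraries. Mrpl24, which lies near the exit of the peptide tunnel, had 162.64, 162.12 and 164.62 TPM in libraries labelled Git2-knockout against 170.63, 167.11 and 168.53 TPM in WT. The groups did not overlap, but the difference on the log2(TPM + 1) scale was only -0.049 (limma, adjusted p = 0.217), while by counts it was -0.20 (edgeR, adjusted p = 0.00129). Mrps21 (mean 150.3 TPM), Mrpl23 (134.7), Mrpl27 (122.5) and Mrps36 (116.7) came next in level. Mrps36, a subunit of the 2-oxoglutarate dehydrogenase complex that carries a mitoribosomal symbol, had 126.04, 116.95 and 109.06 TPM in libraries labelled Git2-knockout and 117.09, 116.16 and 115.06 TPM in WT, with the groups overlapping. By counts its log2 fold change was -0.15 (adjusted p = 0.0636, called at -0.25 without Git2-knockout replicate 1), and with the length trend removed it was 0.17 (0.00662). In sum the 78 genes had 4089.9, 3963.4 and 3956.8 TPM in libraries labelled Git2-knockout against 4393.4, 4465.3 and 4493.3 TPM in WT, a ratio of 0.899. On the log2(TPM + 1) scale with limma, 35 genes fell and 6 rose, against 14.0% and 42.1% of all genes. The mitoribosomal median on that scale was -0.13 where the median of all genes was 0.14. By counts the medians were -0.29 and 0.015, so both moved upward on the TPM scale. The mitoribosomal median minus that of all genes was -0.27 on the TPM scale and -0.30 by counts.

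Correction for GC content alone gave 60 falls and 0 rises among the mitoribosomal genes, against 26.8% and 20.0% of all genes, and removal of length and GC trends together gave 28 falls and 5 rises, against 24.8% and 18.5%. The fall of Mrpl52 missed the threshold in the joint correction, at -0.11 (adjusted p = 0.292), and Mrpl1 was at -0.068 (0.459). In 16 of the 78 genes a fall was called in all 4 of the uncorrected, length, length and GC, and log2(TPM + 1) comparisons, as it was in 9.41% of all genes tested. The large-subunit genes of this set were Mrpl2, Mrpl9, Mrpl12, Mrpl20, Mrpl21, Mrpl43, Mrpl49, Mrpl51, Mrpl55 and Mrpl57, and the small-subunit genes were Mrps5, Mrps7, Mrps16, Mrps24, Mrps26 and Mrps27. Mrpl32 was the only mitoribosomal gene called as a rise in all 4 of those comparisons, against 13.1% of all genes. Those 4 do not include the correction for GC content alone, in which Mrpl32 was not called. The 9.41% and 13.1% are shares over genes of every length, and mitoribosomal transcripts are shorter than most. As counted, 69.9% of genes below 750 nucleotides fell and 4.59% rose, against 16.4% and 43.1% above 2500 nucleotides.

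Both subunits and both classes of origin had medians below 0, and their counts are read against 27.4% falls and 29.6% rises over all genes as counted and 30.5% and 23.5% with the length trend removed. Of the 29 genes with the small-subunit symbol 21 fell and 0 rose (median -0.32), and of the 49 with the large-subunit symbol 33 fell and 2 rose (median -0.22). The split is by symbol alone, and the 29 include Mrps18a, found in the large subunit, and Mrps36, named above as part of another complex. With the length trend removed the counts were 10 falls and 2 rises under the small-subunit symbol and 21 falls and 7 rises under the large, and both medians were -0.12. Origin was assigned mainly from the number in the symbol, so some genes may be misplaced, Mrps24 and Mrpl47 among the mitochondrion-specific ones. Mrps18a, Mrps18b and Mrps36 were put in neither class. Of the 42 genes assigned a bacterial counterpart 28 fell and 2 rose (median -0.28), and of the 33 assigned as mitochondrion-specific 24 fell and 0 rose (median -0.30). With the trend removed these medians were -0.11 and -0.13. The difference between these classes was not tested. The 3 paralogues of bacterial S18 all fell as counted. Mrps18c, which takes the bacterial S18 position in the small subunit, had 18.2, 18.3 and 17.5 CPM in libraries labelled Git2-knockout and 26.7, 24.1 and 24.1 CPM in WT (-0.47, adjusted p = 3.02e-05). Mrps18b, found at another site of the small subunit, had 22.6, 17.3 and 20.0 CPM in libraries labelled Git2-knockout and 25.2, 26 and 27.4 CPM in WT (-0.39, 8.42e-04). Mrps18a, which sits in the large subunit in structures of the ribosome, had 25.3, 24.9 and 22.1 CPM in libraries labelled Git2-knockout and 27.3, 30.0 and 30.8 CPM in WT (-0.28, 0.00262). None of the 3 had overlapping groups. With the length trend removed Mrps18b kept its fall (-0.20, adjusted p = 0.019), and Mrps18c (-0.037, 0.681) and Mrps18a (-0.020, 0.812) did not.

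The genes lie on 17 chromosomes. Chromosome 5, which carries Git2, holds Mrpl1, Mrpl33, Mrps17 and Mrps18c. By the GRCm38 gene table, 20 of the 78 genes overlap another measured gene, and since no source used here gives the strand setting of the counting, reads of such pairs cannot be told apart. Of these 20 genes 16 fell and 0 rose (median -0.31), and of the 58 that overlap none 38 fell and 2 rose (median -0.29). Over all genes tested 27.4% fell and 29.6% rose. With the length trend removed 8 of the 20 fell and 0 rose, and 23 of the 58 fell and 9 rose. The shares over all genes were then 30.5% and 23.5%. Mrpl44, a ribosomal protein related to RNase III enzymes, overlaps Wdfy1, an endosomal protein that had 115, 114 and 112 CPM in libraries labelled Git2-knockout against 35.2, 33.9 and 33.5 CPM in WT. Mrpl44 itself had 20.1, 18 and 16.2 CPM in libraries labelled Git2-knockout and 15.5, 19.1 and 17.8 CPM in WT, and was not called (0.050, adjusted p = 0.673).

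Genes that work with the mitochondrial ribosome were examined as lists, each described by its counts beside the same background of 27.4% falls and 29.6% rises. Of 5 tested mitoribosomal proteins with other symbols 4 fell and 0 rose (median -0.23), among them Gadd45gip1 (15.9 ± 1.45 CPM in libraries labelled Git2-knockout, 21.9 ± 1.19 in WT) and the small-subunit GTP-binding protein Dap3 (48.7 ± 1.94 against 57.2 ± 1.66 CPM in WT, SD, n = 3 each). Of 27 factors for ribosome assembly and rRNA modification 10 fell and 2 rose (median -0.13), with the GTPases Gtpbp6 at -0.52 and Mtg2 at -0.51. Of 17 translation factors 7 fell and 3 rose (median -0.025). The elongation factor Tufm, which brings aminoacyl-tRNA to the ribosome, averaged 80.9 ± 2.73 CPM in libraries labelled Git2-knockout and 111 ± 2.82 CPM in WT (log2 fold change -0.45, adjusted p = 5.96e-07), and its exchange factor Tsfm had a log2 fold change of -0.47 (2.45e-04). Of 20 mitochondrial aminoacyl-tRNA synthetases and amidotransferase subunits 7 fell and 2 rose (median -0.14), with Vars2 at -0.51 and Sars2 at -0.49. These 2 genes and Tufm were also called with the length trend removed, at -0.66, -0.41 and -0.35. Of 18 genes for transcription, replication and RNA processing of mitochondrial DNA 4 fell and 6 rose (median -0.0083). Hsd17b10, a dehydrogenase that is also a subunit of mitochondrial RNase P, fell with the smallest p, at -0.45 (adjusted p = 7.07e-06) and -0.20 with the length trend removed (0.00187). The rises included Mtpap, the mitochondrial poly(A) polymerase, at 0.31 and the transcription factor Tfb2m at 0.36. With the length trend removed, falls and rises numbered 7 and 4 for assembly and rRNA modification, 5 and 2 for translation factors, 8 and 0 for synthetases, 6 and 7 for mitochondrial DNA expression and 1 and 0 for proteins with other symbols, beside 30.5% falls and 23.5% rises over all genes.

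The lists with the shortest transcripts had the lowest medians. Of 78 nuclear subunits of oxidative phosphorylation 72 fell and 0 rose (median -0.41, median length 645 nucleotides), with Cox6b1 at 82.8 ± 3.99 CPM in libraries labelled Git2-knockout and 133 ± 3.87 CPM in WT. Of 79 cytosolic ribosomal proteins 76 fell and 0 rose (median -0.46, median length 676 nucleotides), with Rps14 at 261 ± 9.84 CPM in libraries labelled Git2-knockout and 514 ± 3.45 CPM in WT. Cytosolic ribosomal genes have many near-identical pseudogenes, so their counts are less certain. Of 23 genes of mitochondrial protein import 17 fell and 1 rose (median -0.31), and Timm13, a chaperone between the membranes, had a log2 fold change of -0.76. With the length trend removed the counts were 37 falls and 6 rises for oxidative phosphorylation (median -0.11), 52 and 4 for cytosolic ribosomal proteins (-0.14), and 11 and 1 for import (-0.17), beside the mitoribosomal 31 and 9 (-0.12) and 30.5% falls and 23.5% rises over all genes. Of 14 proteostasis and stress genes 6 fell and 2 rose (median -0.065; 5 and 3 with the length trend removed), with the inner-membrane protease Yme1l1 at 0.43 and the matrix protease Lonp1 at -0.36.

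Regulators of nuclear genes for mitochondrial proteins were divided, with 5 of 10 higher and 4 lower as counted (median 0.075). This list has long transcripts (median 4917 nucleotides), and with the length trend removed 2 rose and 5 fell (median -0.16), against 23.5% and 30.5% of all genes. Gabpa, the DNA-binding subunit of the ETS factor whose motif was searched above, had 66.8 ± 2.55 CPM in libraries labelled Git2-knockout and 44.3 ± 0.358 CPM in WT (log2 fold change 0.59, adjusted p = 8.63e-08). The nuclear receptor Esrra had 201 ± 6.06 CPM in libraries labelled Git2-knockout and 281 ± 9.46 CPM in WT (-0.49, adjusted p = 1.04e-07), and Myc, a transcription factor that promotes growth, had 24.1 ± 0.378 against 35.3 ± 2.19 CPM in WT (-0.55, 1.74e-06). These 3 calls were also made with the length trend removed, at 0.40, -0.46 and -0.55. Nrf1, the factor whose motif is named above, had a log2 fold change of -0.23 (adjusted p = 0.00516) and Yy1 one of 0.22 (6.53e-04), which was -0.033 with the trend removed.

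**Figure D5:**
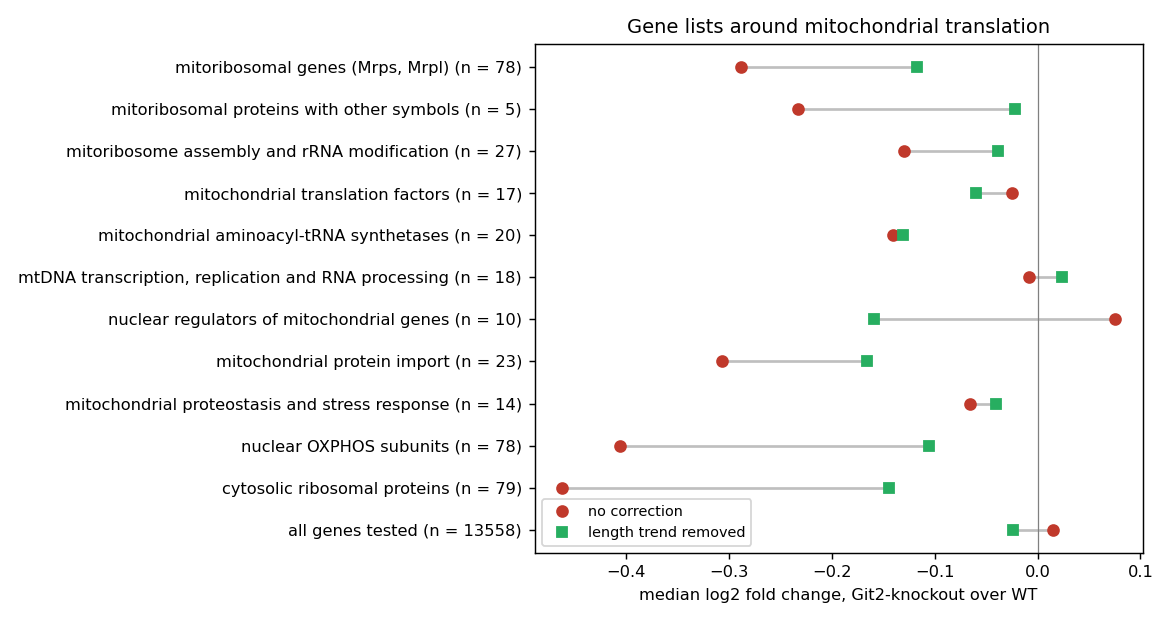
Median log2 fold change, Git2-knockout over WT, of the mitoribosomal genes, 10 lists of related genes and all genes tested (n beside each name), without correction (red circles) and with the length trend removed (green squares). The mitoribosomal median moves to -0.12 on removal, against -0.29 without it, and that of cytosolic ribosomal proteins to -0.14, against -0.46.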

How the data were processed

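RNA of 6 libraries was compared, 3 labelled Git2-knockout and 3 WT, grouped by title. HISAT, Bowtie2, RSEM and the GRCm39 build are named, without versions or roles, by the submitters' processing notes. Read counts deposited by the authors, per the file headers, were not all whole and were taken as estimated counts. TPM and FPKM values were also deposited per library, per the file headers. The members and all gene lists were chosen with earlier results of these data known. Estimated counts were rounded and tested in R 4.3.3 with edgeR 4.0.16 (filterByExpr, TMM scaling, robust glmQLFit and glmQLFTest, two-sided, Benjamini-Hochberg over 13558 genes). The SE was obtained by dividing the fold change (log2) by the root of the F statistic, and CPM is TMM scaled. Totals per library ran from 16284414 to 19106581 estimated reads. Length, as implied by count, FPKM and library total, was averaged over libraries with an FPKM of 0.5 or more and was known for 93.1% of genes. GC content came from GENCODE transcripts of GRCm38 (97.7%). Trends were removed per library by loess (span 0.5) on log2 CPM (prior count 2). TPM values were tested as log2(TPM + 1) with limma 3.58.1. Named mitoribosomal genes are up to 8 called in each direction by p, the 5 highest in TPM, the 3 longest and 3 shortest, those called in opposite directions and the S18 paralogues. From each list up to 3 called genes were taken by p. Genes outside this rule (Mrps12, Mrpl44, Afg3l2, Spg7, Nrf1, Yy1, Wdfy1 and those listed by name beside a count) were named after their values were seen, and the promoters shown were chosen likewise. Replicates differed by more than counting noise (chi-square per degree of freedom 1.58 to 7.15). Git2-knockout replicate 1 gave 7.15 against replicate 2 and 5.29 against replicate 3, and the other pairs gave 1.58 to 2.84. Promoter windows and gene overlaps are RefSeq's on GRCm38.p6, a build other than the files'. The edgeR test and the removal of a length trend were tried on simulated data, and the GC and TPM comparisons were not.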

Additional observations from a re-analysis of the deposited data

How the results depend on the processing

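Counts of falls and rises kept their order (more falls than rises) under every alternative run. With the replicate number as a block, 54 genes fell, 2 rose and the median was -0.287, while 3578 of all 13558 genes fell and 3863 rose. The deviations of same-numbered libraries correlated at r = 0.041, -0.0011 and 0.050, and those of other pairs at -0.068 to 0.033. With 3 libraries per group these values cannot tell whether same-numbered libraries share more than a number. Rises numbered 1 with RLE or upper quartile scaling, DESeq2 or no filter, 9 with the length trend removed (10 with the block as well), 0 with the GC trend removed, 5 with both trends removed, 6 on log2(TPM + 1) or log2(TPM + 0.1) and 7 for TPM of at least 5. Over all 13558 genes, 3830 rose with RLE, 3666 with upper quartile scaling and 3222 with DESeq2, as did 3975 of 18091 with no filter. With the length trend removed and the block 3189 rose, on log2(TPM + 0.1) 5705, and for TPM of at least 5 4580 of 10220. Falls numbered 31 with the length trend removed (32 with the block), 28 with both trends and 35 on either TPM scale, and the medians there were -0.117, -0.119, -0.099, -0.126 and -0.134 (-0.126 for TPM of at least 5). Other scalings and tools gave 45 falls with library totals or DESeq2 1.42.0, 61 with upper quartile scaling and 53 with limma-voom. On leaving out each library, rises ran from 1 to 2, falls from 46 to 64 and the median from -0.344 to -0.269. Over all genes these runs gave 3430 to 4082 rises and 3150 to 4261 falls, of 13685 to 13814 genes tested. For the length-corrected comparison, leaving out each library gave 6 to 11 rises, 23 to 33 falls and medians from -0.134 to -0.119. A curve fitted without the mitoribosomal genes gave 9 rises and 32 falls (3179 and 4147 of all 13558 genes). A span of 0.3 gave 9 and 32 (3178 and 4160 of all genes), and adding GC gave 5 rises. These 3 runs, and the leave-outs of the length-corrected comparison, were chosen after seeing the data. Of the named genes, signs turned as follows. With the length trend removed (and with the block): Mrpl24 0.0227 (0.0227), Mrpl30 0.159 (0.160), Mrpl33 0.344 (0.341), Mrps21 0.0668 (0.0671) and Mrps36 0.172 (0.171). With both trends removed: Mrpl1 -0.0685, Mrpl23 0.00717, Mrpl30 0.0798, Mrpl33 0.248, Mrps18a 0.104, Mrps21 0.0833 and Mrps36 0.0979. With the GC trend removed: Mrpl1 -0.231. With library totals: Mrpl19 0.00935 and Mrps25 0.00445. On log2(TPM + 1), with or without the TPM minimum, and on log2(TPM + 0.1): Mrpl19 0.125 and 0.135, Mrpl33 0.0368 and 0.0370, Mrps25 0.117 and 0.123, Mrps36 0.0128 and 0.0129. On log2(FPKM + 1): Mrpl19 0.0092. On leaving out each library Mrpl19 ran from -0.102 to 0.044 (without WT replicate 2) and Mrps25 from -0.153 to 0.0273 (without Git2-knockout replicate 3). The cause of these turns was not tested.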
